A study of Mus musculus with 4 samples.

Results

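The DNA replication machinery was followed as 37 genes of origin licensing, the replicative helicase, the polymerases, the clamp loader and nucleotide synthesis, out of 19938 genes measured. They were chosen by gene symbol, with earlier results of these data known. A listed gene was a member if a probe set of the array was annotated with its symbol. All 37 were found, on 39 of the 30177 features of the value table. There were 4 one-color arrays, 1 each for Bcl11a-/- MPPs, WT MPPs, Bcl11a-/- GMPs and WT GMPs. All cells were of donor origin and came from the BM of lethally irradiated B6.SJL mice that had received Bcl11a(-/-) or Bcl11a(+/+) fetal liver cells 4 weeks earlier. MPPs (multipotent progenitors) were sorted as LSK cells, which lack lineage markers and carry Sca-1 and c-Kit, without CD150, and GMPs, the granulocyte-macrophage progenitors, were taken from the same BM, so the arrays of 1 genotype share animals. The knockout allele lacks the first exon of Bcl11a, in every cell of the donor, and some cells of the host survive irradiation outside the sorted donor fraction. Each array held sorted cells combined by donor genotype, from an unstated number of animals. Because each condition was measured on a single array, the differences carry neither an error nor a p-value.

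Bcl11a, the targeted gene, had a log2 signal of 8.64 in Bcl11a-/- MPPs and 9.89 in WT MPPs, and of 7.77 in Bcl11a-/- GMPs and 8.60 in WT GMPs. Where its probes lie relative to the deleted exon was not examined here, so these values are a weak check. All 7 GMP markers examined had lower signal in MPPs than in GMPs of the same genotype, and all 4 measured MPP markers had higher signal in MPPs, while Slamf1, which encodes CD150, was at 4.87 in Bcl11a-/- MPPs and 4.34 in WT MPPs. Signals of the 37 genes lay between 6.56 and 11.6, above the median over all genes on every array (5.67 to 5.84).

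A cell copies its DNA once per division. In late mitosis and G1 the origin recognition complex, CDC6 and CDT1 load the ring of MCM2 to MCM7 on origins, which licenses them. In S phase CDC45 and the GINS complex join the ring to form the active helicase, DNA polymerase alpha with primase lays down primers, and the clamp loader places the PCNA clamp that holds the main polymerases on DNA. Many of these genes are transcribed by E2F factors as cells enter S phase, so their mRNA is widely read as a sign of cycling. MPPs divide more often than the stem cells they come from, and GMPs are among the most actively dividing progenitors of the BM.

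Many of the members hold an E2F-type motif in their promoters, which the choice by symbol did not use. RefSeq promoter windows (assembly GRCm38.p6, 250 bases before to 50 after the gene start) were at hand for 31 members, and 14 of these (45.2%) held an E2F-type motif on either strand, spelled TTTCCCGC, or TTTCGCGC, or TTTGCCGC, or TTTGGCGC. Of 15614 measured genes with such a window, 543 (3.48%) held one. The CCAAT pentamer, searched on both strands, was in a window of 20 of the 31 members (64.5%) and of 41.7% of the measured genes. Members with the E2F-type motif had a median MPP difference, Bcl11a-/- minus WT, of -0.14 on the log2 scale, and members without it -0.19. A match describes the letters only. Pole, Rfc2, Mcm4, Gins2, Prim2 and Gins1 were not matched to a window. The 250 bases before the start are given for Mcm5 and Rfc3, which had lower signal in Bcl11a-/- MPPs, for Mcm7 and Gins3, which had higher signal, and for Mcm6, whose MPP difference of -0.19 is at the members' median, with the motif in capitals on the gene's strand. Matches on opposite strands overlap in Mcm5 and at the first place in Mcm6, and the capitals in Mcm7 and Gins3 are the motif read from the other strand. Rfc3 and Mcm7 each hold a further match at or after the start, outside the stretch given. Mcm5 is at chr8:75109259-75109508 (plus strand), Rfc3 at chr5:151651209-151651458 (minus), Mcm6 at chr1:128359706-128359955 (minus), Mcm7 at chr5:138171884-138172133 (minus) and Gins3 at chr8:95633309-95633558 (plus).
Mcm5: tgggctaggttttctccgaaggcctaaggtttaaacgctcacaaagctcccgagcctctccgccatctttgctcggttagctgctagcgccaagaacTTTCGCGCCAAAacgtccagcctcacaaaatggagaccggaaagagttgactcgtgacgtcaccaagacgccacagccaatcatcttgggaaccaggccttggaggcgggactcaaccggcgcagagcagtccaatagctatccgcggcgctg
Rfc3: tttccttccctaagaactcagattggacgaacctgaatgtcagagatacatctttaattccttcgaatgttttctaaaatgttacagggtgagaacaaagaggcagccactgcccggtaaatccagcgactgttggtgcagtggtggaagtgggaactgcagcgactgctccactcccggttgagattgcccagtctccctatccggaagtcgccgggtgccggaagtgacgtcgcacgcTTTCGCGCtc
Mcm6: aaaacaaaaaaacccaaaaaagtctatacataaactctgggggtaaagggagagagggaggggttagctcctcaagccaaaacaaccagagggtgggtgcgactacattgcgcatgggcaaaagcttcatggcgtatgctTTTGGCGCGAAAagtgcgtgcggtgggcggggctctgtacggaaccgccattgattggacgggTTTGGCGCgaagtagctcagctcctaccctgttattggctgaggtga
Mcm7: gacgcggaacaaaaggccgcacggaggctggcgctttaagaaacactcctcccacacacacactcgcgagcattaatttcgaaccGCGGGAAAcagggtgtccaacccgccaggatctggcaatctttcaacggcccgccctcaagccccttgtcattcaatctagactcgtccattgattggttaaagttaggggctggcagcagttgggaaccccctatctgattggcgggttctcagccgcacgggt
Gins3: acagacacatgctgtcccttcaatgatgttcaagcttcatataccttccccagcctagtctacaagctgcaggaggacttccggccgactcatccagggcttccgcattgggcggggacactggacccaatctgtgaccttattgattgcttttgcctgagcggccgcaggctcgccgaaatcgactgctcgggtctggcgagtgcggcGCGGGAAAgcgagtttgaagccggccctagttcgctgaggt

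Most replication genes had slightly lower signal in Bcl11a-/- MPPs than in WT MPPs, and no member differed by 2-fold. Of the 37 genes, 32 had lower signal in Bcl11a-/- than in WT MPPs, or 22 when both arrays were quantile normalized anew. This was 86.5% of the members as deposited, beside 44.2% of all genes and 59.7% of genes at least as bright as the dimmest member. The median log2 difference was -0.19, against 0.05 over all genes. Mcm5, Prim1, Tyms, Rfc3, Rfc2 and Prim2 were lower by more than 1.5-fold, and none was higher by that much. These 6 of 37 (16.2%) stand beside 6.86% of all genes past the same fold in that direction, and 5.18% of all genes were higher. The background depends on brightness. Among the 6474 genes with a mean signal of at least 6.86, that of the dimmest member, 14.2% were lower by more than 1.5-fold and the median was -0.09. The share of members called was therefore near that of genes as bright. Here and below, genes as bright are those at or above that floor, not genes matched to the members in signal. In WT MPPs their median signal was 7.93, against 8.41 for the members. Over all genes 2.02% were lower and 0.908% higher by more than 2-fold.

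**Figure D1:**
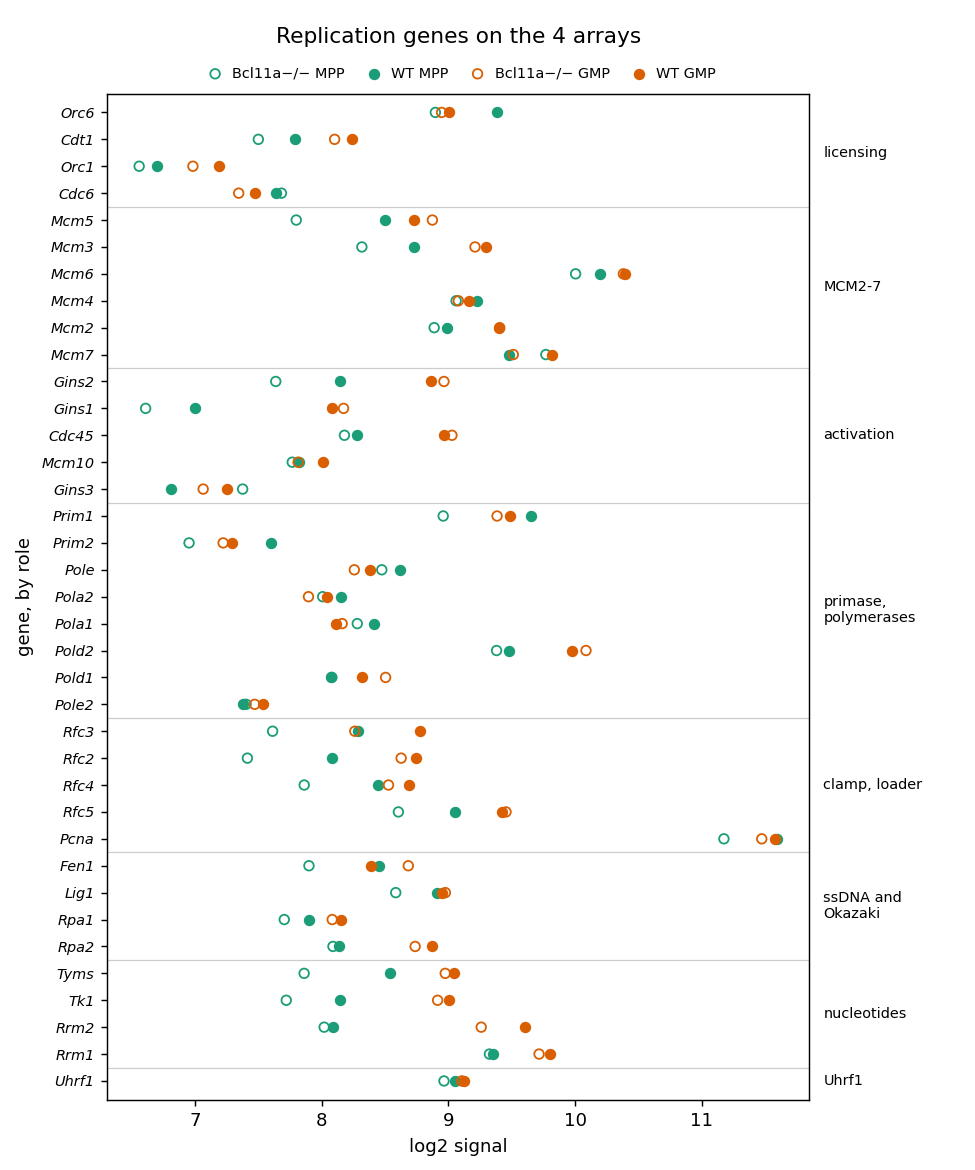
Log2 signal (horizontal axis) of each of the 37 replication genes (rows, grouped by role) on the 4 arrays, 1 point per array, with MPPs in green, GMPs in orange, Bcl11a-/- cells as open circles and WT cells as filled circles. Signals of different genes come from different probes and are not to be compared; within a row, Rfc2 is at 7.41 in Bcl11a-/- MPPs and 8.08 in WT MPPs.

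The clamp loader and its clamp were the role group with the lowest median. Replication factor C, built of RFC1 to RFC5, opens the PCNA ring and closes it around primed DNA. Rfc3 signal was 7.61 in Bcl11a-/- MPPs and 8.29 in WT MPPs, 1.60-fold lower. In GMPs it was 8.26 in Bcl11a-/- cells and 8.77 in WT cells, 1.43-fold lower, the lowest genotype difference of any member in GMPs. Rfc3 was thus lower in the Bcl11a-/- array of both populations. Rfc2 had a signal of 7.41 in Bcl11a-/- MPPs and 8.08 in WT MPPs, 1.59-fold lower, and of 8.63 in Bcl11a-/- GMPs and 8.75 in WT GMPs. Rfc4 had an MPP difference of -0.58, just short of 1.5-fold. Rfc5 was at 8.60 in Bcl11a-/- MPPs and 9.05 in WT MPPs, and at 9.46 in Bcl11a-/- GMPs and 9.43 in WT GMPs. Pcna was at 11.18 in Bcl11a-/- MPPs and 11.60 in WT MPPs, and at 11.47 in Bcl11a-/- GMPs and 11.58 in WT GMPs. The 5 genes ran between -0.67 and -0.42 in MPPs with a median of -0.58, and between -0.51 and 0.03 in GMPs. With the MPP arrays quantile normalized anew all 5 still had lower signal in Bcl11a-/- cells, with a median of -0.49, and Pcna moved most, to -0.12.

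Both subunits of primase had lower signal in Bcl11a-/- MPPs, while the 6 polymerase subunits among the 37 had MPP differences between -0.14 and 0.02. PRIM1 is the catalytic and PRIM2 the regulatory subunit of the enzyme that makes the RNA primer. Prim1 was at 8.96 in Bcl11a-/- MPPs and 9.65 in WT MPPs, 1.62-fold lower, and at 9.38 in Bcl11a-/- GMPs and 9.49 in WT GMPs. Prim2 was at 6.95 in Bcl11a-/- MPPs and 7.60 in WT MPPs, 1.57-fold lower, and at 7.22 in Bcl11a-/- GMPs and 7.29 in WT GMPs. In both genes the Bcl11a-/- MPP array was the lowest of the 4. Their partners Pola1 and Pola2, the catalytic and accessory subunits of polymerase alpha, had MPP differences of -0.13 and -0.14. Pola2 had signals of 8.01 in Bcl11a-/- MPPs, 8.15 in WT MPPs, 7.89 in Bcl11a-/- GMPs and 8.04 in WT GMPs. Pole and Pole2, subunits of the leading strand polymerase epsilon, had MPP differences of -0.14 and 0.02. Pole2 was at 7.40 in Bcl11a-/- MPPs, 7.38 in WT MPPs, 7.47 in Bcl11a-/- GMPs and 7.54 in WT GMPs. For the polymerase delta genes Pold1 and Pold2 the MPP differences were 0.01 and -0.10. Other subunits of polymerases delta and epsilon, not among the 37 and picked after their values were seen, were lower in Bcl11a-/- MPPs. Their differences were -0.37 for Pold3, -0.96 for Pold4, -0.18 for Pole3 and -0.68 for Pole4. Pold1 was the 1 member with higher signal in Bcl11a-/- cells of both populations, at 8.08 in Bcl11a-/- MPPs and 8.07 in WT MPPs, and at 8.50 in Bcl11a-/- GMPs and 8.32 in WT GMPs.

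The 6 subunits of the MCM ring, which form a single complex, did not move together. MCM5 and MCM2 flank the gate through which DNA enters the ring. Mcm5 was at 7.80 in Bcl11a-/- MPPs and 8.50 in WT MPPs, 1.62-fold lower, the lowest MPP difference of the 37. In GMPs it was at 8.87 in Bcl11a-/- cells and 8.73 in WT cells. Mcm7 ran the other way in both populations, at 9.77 in Bcl11a-/- MPPs and 9.48 in WT MPPs, and at 9.51 in Bcl11a-/- GMPs and 9.82 in WT GMPs. Mcm3 had an MPP difference of -0.41. Mcm2, Mcm4 and Mcm6 had -0.10, -0.16 and -0.19, and after quantile normalization anew their signs turned, to 0.06, 0.02 and 0.07. From Mcm5 to Mcm7 the MPP differences covered 0.99 log2 units, and the group median was -0.18 (0.04 after quantile normalization anew). Mcm5 at -0.60 and Mcm7 at 0.49 kept their signs in that setting.

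The factors that turn the loaded ring into a helicase also differed among themselves. GINS is a complex of 4 proteins, and 3 of its genes are members. Gins3 was at 7.38 in Bcl11a-/- MPPs and 6.81 in WT MPPs, a difference of 0.56 and the highest of the 37. In GMPs Gins3 was at 7.06 in Bcl11a-/- cells and 7.25 in WT cells. Gins2 was at 7.64 in Bcl11a-/- MPPs and 8.14 in WT MPPs, 1.42-fold lower, and at 8.96 in Bcl11a-/- GMPs and 8.86 in WT GMPs. Gins1 was 1.31-fold lower in Bcl11a-/- MPPs. The fourth GINS gene, Gins4, which is not one of the 37 and was picked out after its values were seen, had an MPP difference of -0.35. So 3 of the 4 had lower and 1 had higher signal in Bcl11a-/- MPPs, also after both other scalings for the 3 members. Cdc45, the third part of the active helicase, and Mcm10, a factor needed for its activation, had MPP differences of -0.10 and -0.05. Mcm10 was at 7.77 in Bcl11a-/- MPPs, 7.82 in WT MPPs, 7.81 in Bcl11a-/- GMPs and 8.01 in WT GMPs.

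Licensing genes were within 1.5-fold in both populations. Orc6, which encodes the smallest subunit of the origin recognition complex, was at 8.90 in Bcl11a-/- MPPs and 9.39 in WT MPPs, and at 8.95 in Bcl11a-/- GMPs and 9.01 in WT GMPs. Orc1, the gene of the largest subunit, was at 6.56 in Bcl11a-/- MPPs and 6.70 in WT MPPs, and at 6.98 in Bcl11a-/- GMPs and 7.19 in WT GMPs. Cdt1 and Cdc6 load the MCM ring. Cdt1 was 1.22-fold lower in Bcl11a-/- MPPs. Cdc6 had signals of 7.68 in Bcl11a-/- MPPs, 7.63 in WT MPPs, 7.34 in Bcl11a-/- GMPs and 7.47 in WT GMPs, so its 4 values spanned little. All 4 licensing genes had lower signal in Bcl11a-/- than in WT GMPs, by at most 0.21.

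Among genes for the joining of Okazaki fragments, Fen1 differed most. FEN1 cuts the flap left by a displaced primer, and LIG1 seals the nick. Fen1 was at 7.90 in Bcl11a-/- MPPs and 8.46 in WT MPPs, 1.47-fold lower, but at 8.68 in Bcl11a-/- GMPs and 8.39 in WT GMPs, the highest genotype difference of any member in GMPs. Lig1 was 1.25-fold lower in Bcl11a-/- MPPs and had a GMP difference of 0.03. Rpa1 and Rpa2 encode subunits of the protein that coats single-stranded DNA. Their MPP differences were -0.19 and -0.05. Rpa2 was at 8.09 in Bcl11a-/- MPPs, 8.14 in WT MPPs, 8.74 in Bcl11a-/- GMPs and 8.87 in WT GMPs. Uhrf1, which brings the maintenance DNA methyltransferase to newly copied DNA, was at 8.97 in Bcl11a-/- MPPs, 9.05 in WT MPPs, 9.11 in Bcl11a-/- GMPs and 9.12 in WT GMPs.

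Of the nucleotide synthesis genes, Tyms passed 1.5-fold in MPPs, with lower signal in Bcl11a-/- cells, while both ribonucleotide reductase genes were near 0. Thymidylate synthase makes dTMP from dUMP. Tyms was at 7.86 in Bcl11a-/- MPPs and 8.54 in WT MPPs, 1.60-fold lower, and at 8.98 in Bcl11a-/- GMPs and 9.04 in WT GMPs. Tk1, thymidine kinase of the salvage pathway, was 1.34-fold lower in Bcl11a-/- MPPs as the mean of 2 probe sets that disagreed. One had an MPP difference of -0.77 and the other of -0.09. Rrm1 and Rrm2, the subunits of ribonucleotide reductase, had MPP differences of -0.03 and -0.07, and quantile normalization anew turned these to 0.15 and 0.02. Rrm1 was at 9.32 in Bcl11a-/- MPPs, 9.35 in WT MPPs, 9.72 in Bcl11a-/- GMPs and 9.80 in WT GMPs. Rrm2 was at 8.02 in Bcl11a-/- MPPs and 8.09 in WT MPPs, and at 9.26 in Bcl11a-/- GMPs and 9.60 in WT GMPs, 1.27-fold lower. Dtymk, which encodes the kinase that turns dTMP into dTDP and is not one of the 37, was at 7.22 in Bcl11a-/- MPPs and 8.71 in WT MPPs, 2.80-fold lower.

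**Figure D2:**
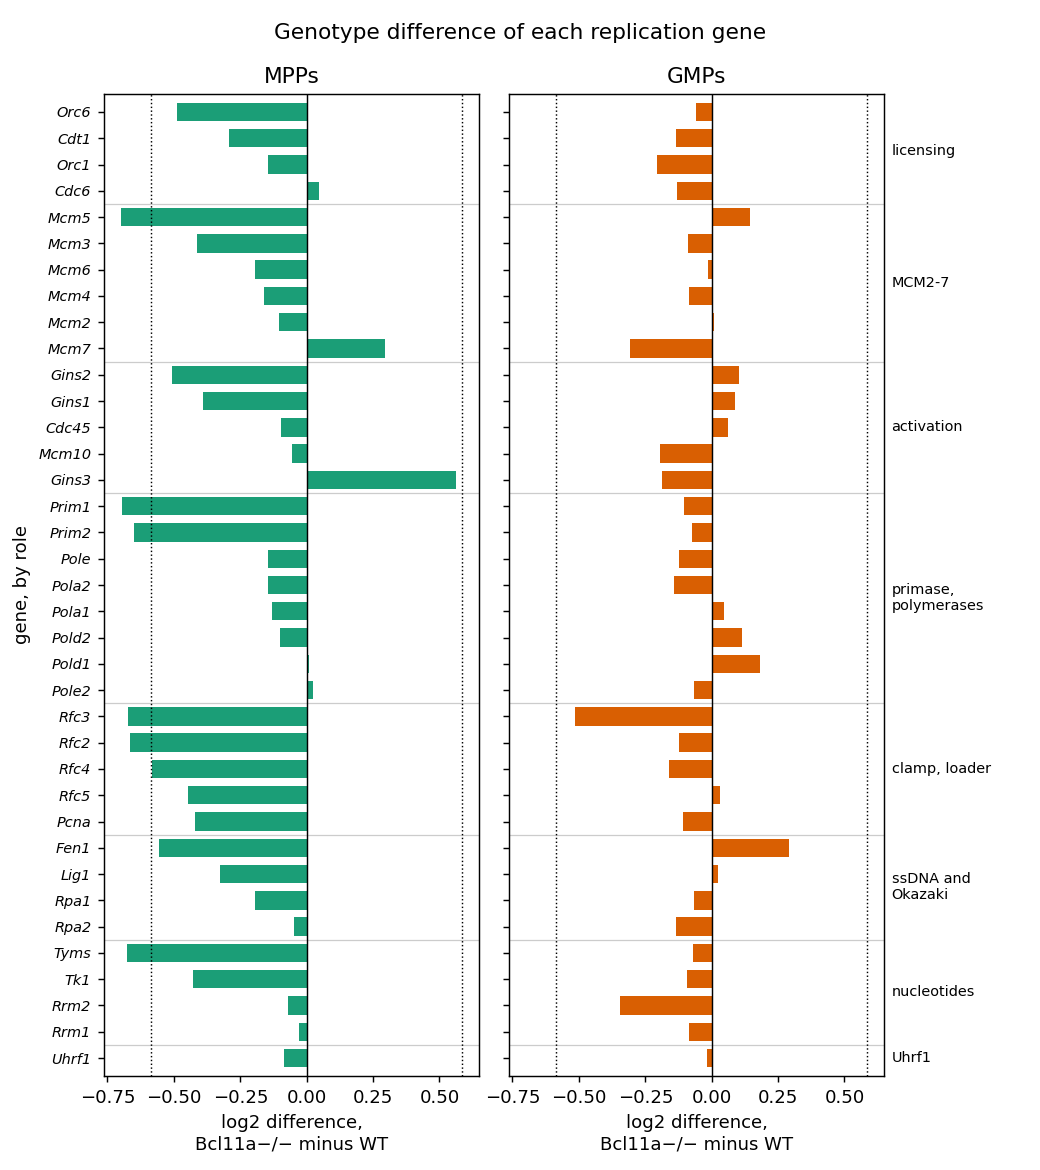
Log2 difference, Bcl11a-/- minus WT, of each replication gene (rows, by role) in MPPs (left, green) and GMPs (right, orange), with 1 array per condition; dotted lines mark a 1.5-fold difference. In MPPs bars run between -0.70 (Mcm5) and 0.56 (Gins3), and in GMPs between -0.51 (Rfc3) and 0.29 (Fen1).

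In GMPs the replication genes, like most genes measured, differed little between genotypes. None of the 37 was over 1.5-fold in either direction, where 2.02% of all genes were higher and 1.49% lower by that much. Over 2-fold were 0.361% higher and 0.281% lower, and no member. With shares this small, the lack of called members is near what all genes showed. The median difference was -0.08, against 0.01 over all genes and -0.03 over the genes as bright. Of the 37, 33 were within 0.25 log2 units, a limit that was not counted over all genes. The members beyond were Rfc3 (-0.51), Rrm2 (-0.35), Mcm7 (-0.31) and Fen1 (0.29). The difference was larger in size in MPPs than in GMPs for 27 of 37 genes. The array as a whole also differed more in MPPs, where 5.18% of all genes were higher and 6.86% lower by more than 1.5-fold. Lower signal in Bcl11a-/- cells of both populations was seen for 22 genes and higher signal in both for 1, while 10 were lower in MPPs and higher in GMPs and 4 the reverse. Neither the size count nor these sign counts were made over all genes, so they are not read as particular to the members.

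**Figure D3:**
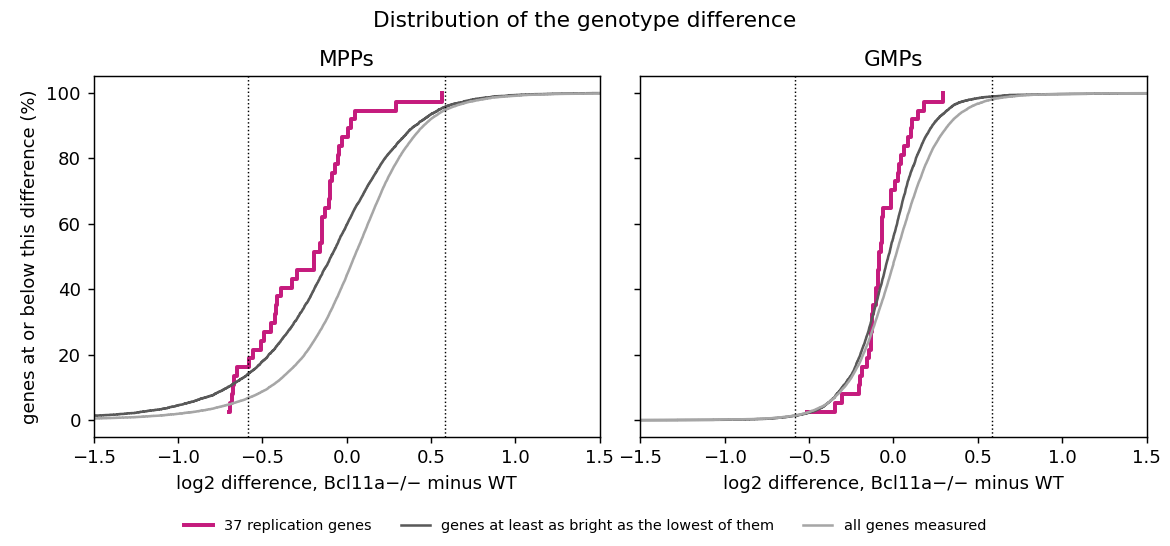
Cumulative distribution of the log2 difference, Bcl11a-/- minus WT (horizontal axis, shown between -1.5 and 1.5), in MPPs (left) and GMPs (right) for the 37 replication genes, for genes at least as bright as the dimmest of them and for all genes; the vertical axis is the percentage of genes at or below a difference and dotted lines mark 1.5-fold. The median of the 37 is -0.19 in MPPs, against -0.09 for genes as bright and 0.05 for all genes.

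Markers of other cells differed between the same arrays. The 7 measured B lineage markers had a mean log2 signal of 5.17 in Bcl11a-/- MPPs and 8.35 in WT MPPs, with each of the 7 past 2-fold. Over genes they ranged between 3.30 and 7.08 in Bcl11a-/- MPPs and between 6.27 and 10.6 in WT MPPs. The 7 GMP markers had a mean of 8.33 in Bcl11a-/- MPPs and 9.64 in WT MPPs, and 5 of them were lower, Elane, Prtn3, Ctsg and Ms4a3 by more than 2-fold. Cebpe (0.87) and Fcgr3 (0.47) were higher in Bcl11a-/- MPPs. Higher signal in Bcl11a-/- MPPs was also found for all 7 measured erythroid markers, with a median difference of 0.45, for all 4 measured megakaryocyte markers, with 0.45, and for all 5 measured stem cell markers, with 0.21. Of these Pf4, of megakaryocytes, was over 2-fold, at 6.05 in Bcl11a-/- MPPs and 4.85 in WT MPPs. The stem cell and megakaryocyte markers were dim, with median signals of 5.32 and 5.83 in WT MPPs, beside 5.78 over all genes. Of all 19938 genes, 11092 had higher signal in Bcl11a-/- MPPs. Of the 4 measured MPP markers, Flt3 was at 7.71 in Bcl11a-/- MPPs and 9.31 in WT MPPs, 3.04-fold lower. Kit, Cd34 and Cd48 had MPP differences of 0.13, 0.48 and 0.03. In GMPs all 7 measured erythroid markers were higher in Bcl11a-/- cells, 6 of them by more than 1.5-fold, and all 7 B lineage markers were lower by more than 1.5-fold. The part of such cells in the differences of the replication genes was not tested. In a pool of sorted cells, fewer cells in S phase and less mRNA per cell cannot be told apart.

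Of a list of 44 other replication genes, 43 were measured, and their median MPP difference was -0.19. In Bcl11a-/- MPPs 9 of the 43 (20.9%) were lower and none higher by more than 1.5-fold, beside 6.86% of all genes and 14.2% of genes as bright as the members that were lower. Dtymk alone was over 2-fold. The next lowest were Pold4, the smallest subunit of polymerase delta, at -0.96, and Atad5, which helps to unload PCNA, at -0.90. The highest were Rpa3 (0.58), of the single-strand binding protein, Samhd1 (0.53), which degrades dNTPs, and Orc5 (0.49). In GMPs the median was -0.07, and 1 of the 43 (2.33%), Dck, the salvage kinase of deoxycytidine, was over 1.5-fold lower, at -0.72, beside 1.49% of all genes. Of 13 genes of the E2F network, 6 had higher and 7 lower signal in Bcl11a-/- MPPs, with a median of -0.03. E2f5, a repressor of the family, was the lowest at -0.71, followed by the activator E2f1 at -0.46, and Rb1, which binds and restrains E2F factors, was the highest at 0.55. Of 9 measured mitosis genes 8 had lower signal in Bcl11a-/- MPPs, with a median of -0.35, beside 59.7% of genes as bright as the members that were below 0. In GMPs their median was -0.01.

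Most replication genes had lower signal in MPPs than in GMPs of the same genotype, as did most genes at least as bright as the dimmest member. Between Bcl11a-/- MPPs and Bcl11a-/- GMPs the median log2 difference of the 37 genes was -0.42, with 31 lower in MPPs, and between WT MPPs and WT GMPs it was -0.25, with 27 lower. These were 83.8% of the members in Bcl11a-/- cells and 73.0% in WT cells, beside 60.3% and 59.2% of genes as bright, whose medians were -0.16 and -0.10. After quantile normalization anew 24 were lower in MPPs of either genotype, and the share of genes as bright was not counted in that setting. In Bcl11a-/- cells 16 (43.2%) were lower in MPPs by more than 1.5-fold, against 11.8% of all genes and 27.5% of genes as bright, and none was higher (10.9% of all genes were). In WT cells 7 (18.9%) were lower by more than 1.5-fold, against 7.97% of all genes and 16.9% of genes as bright, and none was higher (6.67% of all genes were). By more than 2-fold, 7 (18.9%) were lower in Bcl11a-/- MPPs, where 5.82% of all genes and 14.9% of genes as bright were lower and 2.36% of all genes were higher. In WT MPPs 2 (5.41%) were lower by more than 2-fold, where 2.8% of all genes and 6.44% of genes as bright were lower and 1.33% of all genes were higher. In WT cells the shares of members called were near those of genes as bright. The 2 comparisons share no array, but each shares its arrays with the genotype comparisons above.

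The members past 2-fold between populations were Gins1, Gins2, Rrm2, Rfc2, Tk1, Tyms and Mcm5 in Bcl11a-/- cells, and Rrm2 and Gins1 in WT cells. Gins1 had a difference, MPPs minus GMPs, of -1.56 in Bcl11a-/- cells and -1.08 in WT cells. Rrm2 was lower in MPPs by more than 2-fold in both genotypes, with differences of -1.24 in Bcl11a-/- cells and -1.52 in WT cells. For Gins2, Rfc2, Tk1, Tyms and Mcm5 the difference was past 2-fold in Bcl11a-/- cells, at -1.33, -1.21, -1.20, -1.11 and -1.08. In WT cells these 5 were within 2-fold, at -0.72, -0.67, -0.86, -0.51 and -0.23. The WT value of Tk1 is the mean of 2 probe sets that disagreed, at -0.45 and -1.27, the latter past 2-fold. Whether the population differences differ between genotypes was not tested. The members with higher signal in MPPs of both genotypes were Cdc6 (0.34 in Bcl11a-/- and 0.16 in WT cells), Pole (0.22 and 0.24), Pola1 (0.12 and 0.29) and Pola2 (0.11 in both). The sign of the population difference was not the same in both genotypes for 8 genes, including Mcm7, at 0.26 in Bcl11a-/- cells and -0.34 in WT cells, and Fen1, at -0.78 in Bcl11a-/- cells and 0.06 in WT cells. Such changes of sign were not counted over all genes.

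**Figure D4:**
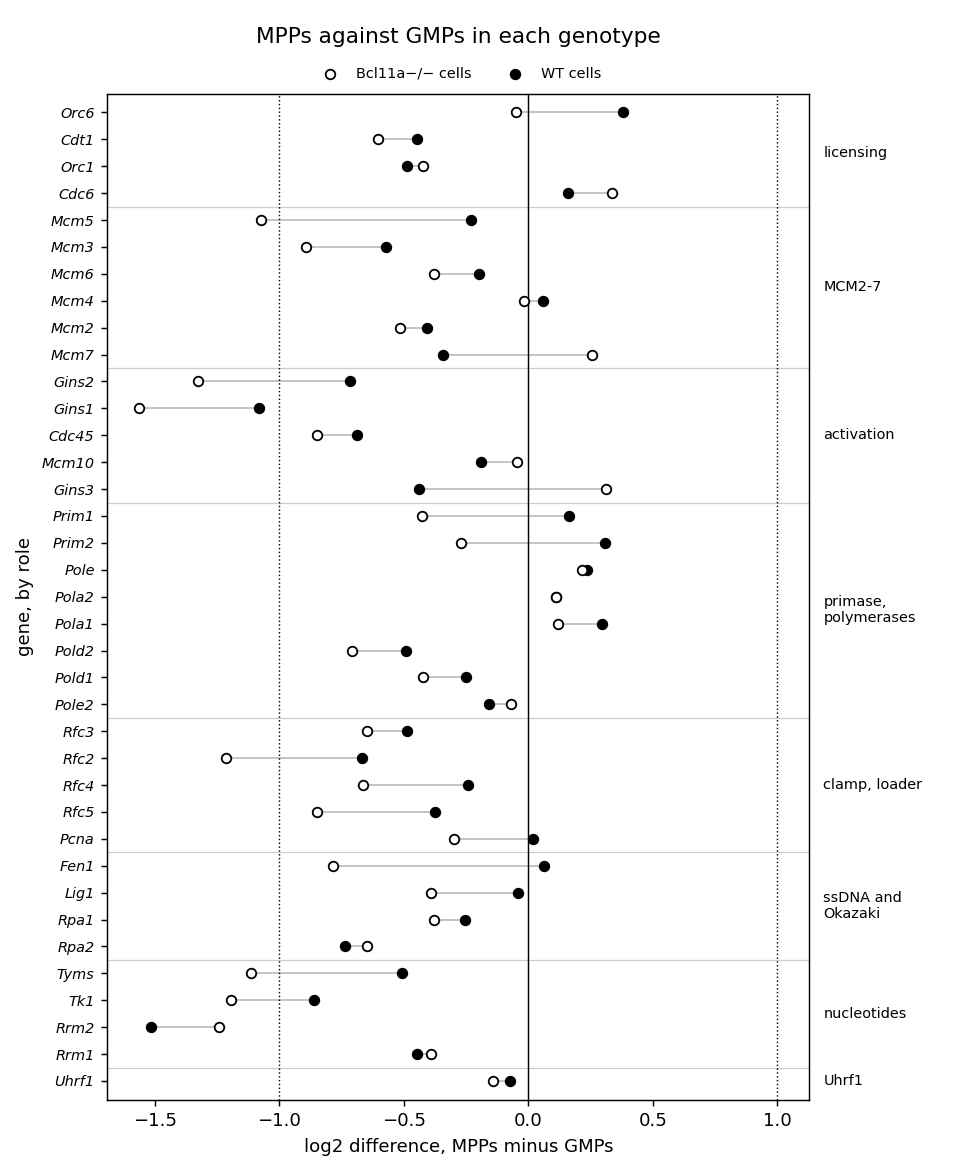
Log2 difference, MPPs minus GMPs, of each replication gene (rows, by role) in Bcl11a-/- cells (open circles) and in WT cells (filled circles), joined by a line, with 1 array per condition; dotted lines mark 2-fold. Gins1 and Rrm2 lie below -1 in both genotypes, and Mcm7 and Gins3 are above 0 in Bcl11a-/- cells and below 0 in WT cells.

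The size of the MPP difference depended on the scaling of the arrays. The spread of signal was not equal, with an SD over all genes of 1.83 in Bcl11a-/- MPPs and 1.93 in WT MPPs. After a lowess curve on signal was subtracted, the median of the 37 was -0.14 and 27 were below 0. In that setting 5 were lower by more than 1.5-fold, beside 6.72% of all genes. With both arrays quantile normalized anew it was -0.10 with 22 below 0, and 2 members, Mcm5 (-0.60) and Prim2 (-0.59), were lower by more than 1.5-fold. Rfc2, Rfc3 and Tyms, each at -0.58, then lay just within it, and Prim1 was at -0.52. Gins3 was then higher by more than 1.5-fold, at 0.62. Over all genes 6.15% were lower and 5.16% higher by more than 1.5-fold after quantile normalization anew. After quantile normalization anew the share of members called was near that of all genes. How many other genes lay below 0 under these scalings was not counted.

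**Figure D5:**
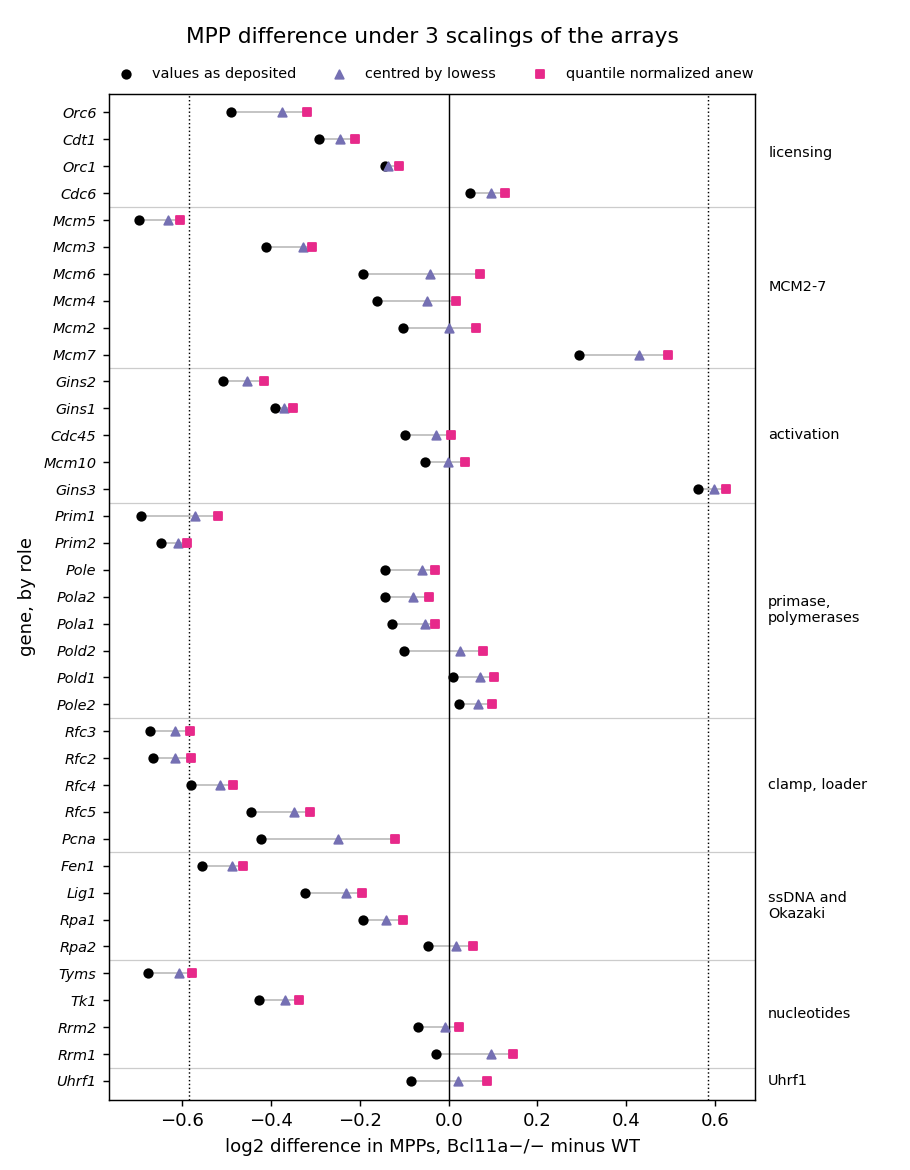
Log2 difference in MPPs, Bcl11a-/- minus WT, of each replication gene (rows, by role) from the values as deposited (black circles), after centring by a lowess curve on signal (purple triangles) and after quantile normalization of both arrays anew (pink squares); dotted lines mark 1.5-fold. The clamp and clamp loader genes stay below 0 in all 3 and Gins3 and Mcm7 above 0, while 10 members cross to above 0 after quantile normalization anew.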

How the data were processed

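RNA of donor MPPs and GMPs, combined by genotype after sorting, was amplified and labeled with biotin. The authors summarised the probes by RMA with quantile normalization in ArrayStar and deposited log2 values. Its version is not named in the sources used here. Scanner files were not used here, and a further signal scaling can shift bright genes.

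Gene symbols came from the platform annotation, in which 21789 probe sets have 1 symbol and 1621 several. Probe sets with 1 symbol were averaged per gene. No probe set with several symbols named a member. The log2 difference was taken per gene, Bcl11a-/- minus WT or MPPs minus GMPs. Members over 1.5-fold and over 2-fold were counted beside all genes. With 1 array per condition no test was run, and the number of arrays limits the precision. The members, lists and rules were chosen with earlier results of these data known. Members over 1.5-fold between genotypes and the extremes of each role group are given on all 4 arrays. Alternatives were a minimum signal of 6, a floor at 5, centring on the median or by lowess (span 0.3), new quantile normalization, and other handling of probe sets. Calls over 2-fold, lowess centring and quantile normalization were tried on simulated data with planted differences of more than 2-fold. No member reached that size between genotypes, and smaller planted differences were not tried. Python 3.11.15, pandas 2.3.3, numpy 2.4.6 and statsmodels 0.14.6 were used.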

Additional observations from a re-analysis of the deposited data

Results flagged for a closer look

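There were 6 members that had genotype differences, Bcl11a-/- minus WT, of opposite sign in MPPs and GMPs with a size of at least 0.1 log2 units in both, and with 1 array per condition the difference between populations was not tested. The MPP difference minus the GMP difference was -0.85 for Fen1, -0.84 for Mcm5, -0.61 for Gins2 and -0.21 for Pold2, which were lower in Bcl11a-/- MPPs and higher in Bcl11a-/- GMPs. It was 0.75 for Gins3 and 0.60 for Mcm7, which were higher in Bcl11a-/- MPPs and lower in Bcl11a-/- GMPs. Genes that meet this rule were not counted over all genes, so the 6 are not read as particular to the members. Under lowess centring and under new quantile normalization the opposite signs were kept by Fen1, Mcm5, Gins2, Gins3 and Mcm7, and not by Pold2, whose MPP difference was then 0.03 and 0.08.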

How the results depend on the processing

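The median of the 37 genes stayed below 0 in all 4 comparisons under each alternative run. Of these, quantile normalization of the arrays anew moved the largest number of values. In MPPs it left 2 members lower and 1 higher by more than 1.5-fold, beside 6.15% and 5.16% of all genes. Lowess centring gave 5 lower and 1 higher, beside 6.72% and 4.60% of all genes. Centring on the median gave 8 lower and 0 higher, beside 7.79% and 4.22% of all genes. The shares of genes as bright were not counted in these settings. For WT MPPs minus WT GMPs quantile normalization anew gave a median of -0.12, with 3 members lower by more than 1.5-fold and 1 by more than 2-fold. Of all genes 7.02% and 2.30% were lower by those folds. For Bcl11a-/- MPPs minus Bcl11a-/- GMPs the median was then -0.21, with 9 members lower and 1 higher by more than 1.5-fold and 3 lower by more than 2-fold. Of all genes 10.6% were lower and 10.6% higher by more than 1.5-fold, and 4.53% lower by more than 2-fold. Lowess centring gave a median of -0.29 for this comparison. Of 97 values of single members (both genotype differences, and population differences past 1.5-fold), 54 stayed within 0.1 log2 units with the same sign after quantile normalization anew, 64 after lowess centring and 94 after centring on the median, and none past 1.5-fold changed sign. The minimum signal and the floor lie below every member and could change none, and the choice of probe set could change only Tk1. With the brightest probe set of each gene, 3 members were lower in WT MPPs than in WT GMPs by more than 2-fold. Of all genes 2.78% were lower by that much in this setting. The comparison with genes as bright as the members was chosen after seeing the data. Use of probe sets with several symbols could not be tried, since none named a member. No paired analysis was possible because the conditions, with 1 array each, share fewer than 2 replicate numbers. A fit of genotype and population together over the 4 arrays was not run.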

Other observations

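The 2 probe sets of Tk1 gave different accounts. The first had log2 signals of 7.59 in Bcl11a-/- MPPs and 8.36 in WT MPPs, and of 8.60 in Bcl11a-/- GMPs and 8.81 in WT GMPs. The second had 7.85 in Bcl11a-/- MPPs and 7.93 in WT MPPs, and 9.23 in Bcl11a-/- GMPs and 9.21 in WT GMPs. MPPs were lower than GMPs of the same genotype on both probe sets, while the genotype difference rested on the first. The 2 probe sets of Pcna held identical values on every array and carry 1 measurement.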
